A study of Homo sapiens with 4 samples.

Results

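The comparison described here set LX-2 cells given TGF-β together with BDS4 against LX-2 cells given TGF-β alone. Its members are the genes with at least 1 count per 1000000 scaled counts (CPM) in either of the 2 libraries, 15672 genes of the 63241 in the deposited table. Across all 4 libraries of the series, 16099 genes reached that level. LX-2 is an established human line derived from hepatic stellate cells, which become matrix-producing myofibroblasts when the liver is injured. All cells were starved for 24 h in medium with 0.5% serum. The TGF-β library came from cells given TGF-β at 20 ng/mL for 24 h, and its column name carries DMSO, the usual solvent. The BDS4 library came from cells given TGF-β at 20 ng/mL and BDS4 at 5 µM for 24 h. Another library held TGF-β with RVX-208 at 5 µM, and the last was a control with no TGF-β, of which no vehicle is stated. There was 1 library per group, so nothing below was set against variation between cultures, and no p-value is given. BDS4 itself is a code name, and only the sample's description ties its column of counts to the compound.

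BET proteins read acetylated lysines on histones through paired bromodomains and recruit the elongation machinery to promoters and enhancers. The title of the study is about covalent inhibitors of the first of these bromodomains, and RVX-208 is a BET inhibitor that prefers the second. TGF-β drives stellate cells through SMAD proteins, which work together with AP-1, YAP/TEAD and other factors at the genes of the scar matrix. In bulk RNA, fewer cells of a type and less RNA per cell cannot be told apart.

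Calls required a ratio of 2 or more, up or down, between the libraries, and a 95% counting interval of that ratio that did not contain 1. By this rule 2313 genes were higher (14.8%) and 2776 lower (17.7%), together 32.5% of the genes tested. Of the called genes, 720 were at least 4-fold higher and 996 at least 4-fold lower, and 166 and 190 differed at least 16-fold. The median log2 ratio of all genes (prior count 2) was 0.00, and the 5th and 95th percentiles were -2.14 and 1.85. Genes called higher took 6.89% of the counts with TGF-β alone and 20.1% with BDS4, and genes called lower took 17.3% and 4.90%. In 13896 genes that reached 1 CPM in both libraries, 1642 were higher and 2051 lower (11.8% and 14.8%). A further 855 genes passed through the BDS4 library alone, which leaves only the higher side open to them, and 921 through the TGF-β library alone. At the threshold, 200 genes had their higher level between 1 and 1.1 CPM (median log2 ratio -0.03), and 301 genes left out lay between 0.9 and 1 CPM (median -0.22).

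**Figure D1:**
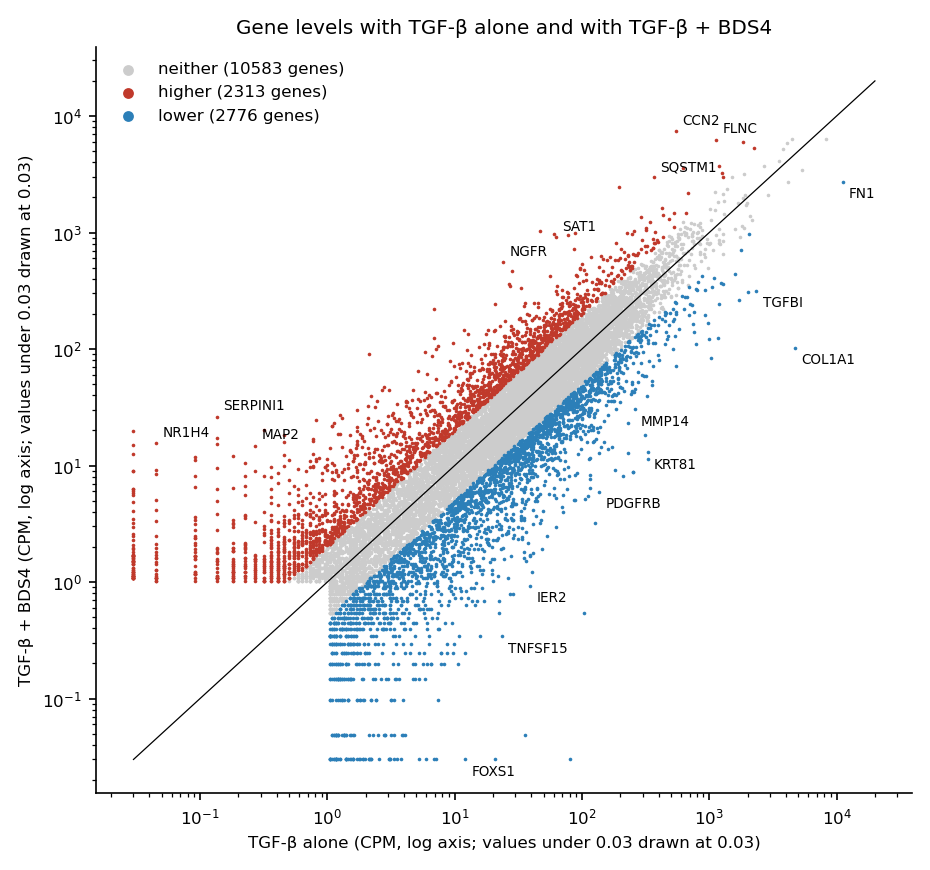
Level of each of the 15672 genes with TGF-β alone (x axis, CPM, log axis) and with TGF-β and BDS4 (y axis, CPM, log axis), 1 point a gene, with equal levels on the line. The 2313 genes called higher lie above the line in red and the 2776 called lower below it in blue, from genes near 0 counts to CCN2 and FN1.

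Measures of the libraries themselves also differed. Library totals ran from 17022369 to 22503094 counts, with 21860122 for TGF-β and 21618509 for BDS4. Mitochondrial ribosomal RNA made up 0.903% of the counts with BDS4 and 0.212% to 0.248% in the other 3 libraries. Some transcripts without a poly(A) tail stood higher too: RN7SK, the scaffold of the complex that holds P-TEFb inactive, had 118 counts with BDS4 and 16 to 23 in the others, and SNORD3A had 51 against 1 to 7. RN7SL1 was at 15.7 CPM in the control, 83.3 with TGF-β, 49.1 with BDS4 and 29.2 with RVX-208, highest with TGF-β alone. Adult globin mRNAs (HBA1, HBA2 and HBB) had 270 counts with BDS4, 0.00125% of the library, and 0 in each of the other 3. HBA1 was thereby at least 46.2-fold higher, taking 3 counts as the limit for a count of 0. The part of these differences in the results below was not tested. Of the stellate and fibroblast markers, 12 of 14 were kept, 1 of them higher and 8 lower. These shares, 8.33% and 66.7%, stood against 14.8% and 17.7% of all genes. COL1A1 fell from 4705 to 103 CPM, and TIMP1, the higher one, rose from 347 to 701 CPM. VIM, at 3551 and 4080 CPM, was not called. Cholangiocyte and epithelial markers had 4 of 7 kept and all 4 lower, endothelial markers 3 of 8 kept, hepatocyte markers 1 of 8 kept, and macrophage and leukocyte markers 5 of 9 kept, 1 higher (HBB, a globin) and 1 lower (CSF1R, from 5.34 to 0.785 CPM). PTPRC, the pan-leukocyte marker, had at most 4 counts in any library. In the MHC region of chromosome 6, 68 of 154 protein-coding genes had 0 counts in all 4 libraries, so genes placed there, BRD2 and AGPAT1 included, are uncertain.

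Promoter stretches are shown for 3 groups that the results turn on. Called histone genes and called NRF2 targets were mostly higher, and called interferon-stimulated genes mostly lower. Of 34 NRF2 genes, 14 were higher, 3 lower and 17 neither. The sequences are from RefSeq (GRCh38.p14), 5′ to 3′ on the gene's own strand, within the 250 bases before an annotated start, and capitals mark the motif named. In H1-4 (chr6:26156136-26156328, + strand) and H2BC5 (chr6:26157871-26158120, + strand), capitals mark the TATA box (TATAAA) and the CCAAT box (CCAAT), on either strand. In IFI44 (chr1:78649727-78649788, + strand) and HERC5 (chr4:88456950-88457099, + strand) they mark a pair of interferon response half-sites (GAAANNGAA). In TXNRD1 (chr12:104215635-104215733, + strand) and EPHX1 (chr1:225825231-225825329, + strand) they mark the core of the antioxidant response element (TGACNNNGC).
H1-4: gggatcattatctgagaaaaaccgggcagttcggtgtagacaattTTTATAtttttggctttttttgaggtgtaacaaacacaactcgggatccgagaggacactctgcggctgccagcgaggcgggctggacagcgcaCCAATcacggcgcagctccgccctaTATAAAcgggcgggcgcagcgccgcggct
H2BC5: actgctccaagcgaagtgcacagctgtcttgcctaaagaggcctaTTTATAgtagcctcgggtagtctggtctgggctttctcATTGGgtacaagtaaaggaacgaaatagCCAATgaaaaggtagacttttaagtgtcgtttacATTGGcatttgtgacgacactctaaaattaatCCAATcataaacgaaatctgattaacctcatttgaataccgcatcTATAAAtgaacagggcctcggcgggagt
IFI44: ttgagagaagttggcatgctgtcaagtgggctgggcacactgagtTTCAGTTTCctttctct
HERC5: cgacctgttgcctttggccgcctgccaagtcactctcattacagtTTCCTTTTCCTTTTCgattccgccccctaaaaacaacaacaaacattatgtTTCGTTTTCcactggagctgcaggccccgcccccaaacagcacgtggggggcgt
TXNRD1: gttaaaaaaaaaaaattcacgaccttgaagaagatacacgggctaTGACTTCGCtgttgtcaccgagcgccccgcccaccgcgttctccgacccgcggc
EPHX1: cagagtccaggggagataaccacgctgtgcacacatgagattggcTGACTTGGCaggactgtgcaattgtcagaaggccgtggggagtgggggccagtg

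Of the 12820 protein-coding genes kept, 10324 had promoter sequences in the RefSeq table, 15143 in all. The interferon half-site pair was found in 21 of 34 promoters of called interferon genes (61.8%) and in 5.58% of all promoters. By call, the pair stood in 5.45% of promoters of genes called higher, 6.26% of those lower and 5.42% of those neither. It was also in 14 of 45 promoters of clustered histone genes (31.1%), most of which were higher. A TATA box stood in 28 of 45 promoters of clustered histone genes (62.2%) and in 6.16% of all. The shares were 10.0% for genes called higher, 8.85% with the clustered histones left out, and 7.11% for genes called lower. The antioxidant element core was in 4 of 14 promoters of called NRF2 targets (28.6%) against 11.5% of all. CCAAT was in 38.8% of promoters of genes called higher and 25.5% of those called lower, against 33.1% of all. The motifs were searched on both strands, and a match describes the letters only.

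Most clustered histone genes were called higher. Replication-dependent histone genes lie in clusters, mostly on chromosomes 6 and 1, and their mRNAs usually end in a stem-loop in place of a poly(A) tail. Of 31 such genes on chromosome 6 (GRCh38, chr6:26055787-27893843), 29 were higher and 0 lower, and of 10 on chromosome 1, 9 were higher and 0 lower. Of all genes 14.8% were higher and 17.7% lower. On chromosome 6, H1-3, H1-4, H1-5, H2AC7, H2AC15, H2AC17, H2BC7, H3C8, H4C3, H4C4 and H4C9 were under 1 CPM with TGF-β. On chromosome 1, H3C13 and H3C14 were. Such genes were kept through the BDS4 library alone, which leaves only the higher side open to them. The summed level of the 31 genes on chromosome 6 was 376 CPM in the control, 435 with TGF-β, 1786 with BDS4 and 861 with RVX-208. On chromosome 1 it was 55.7, 68.3, 363 and 163 CPM. In both sums the BDS4 library was the highest, and the RVX-208 library stood between it and TGF-β. H1-4, a linker histone, went from 0.453 to 16 CPM, with 0.670 in the control and 2.32 with RVX-208. The ratio was 35.4 (19 to 74.5). H4C8, which encodes core histone H4, stood at 24.6 CPM in the control, 33.0 with TGF-β, 335 with BDS4 and 104 with RVX-208, a 10.2-fold difference (9.41 to 11) from TGF-β. Other RNAs without a poly(A) tail were also higher in the BDS4 library (RN7SK 0.725 and 5.79 CPM, SNORD3A 0.0453 and 2.5 CPM with TGF-β and BDS4), while RN7SL1 (83.3 and 49.1 CPM) was not called, and the part of this in the histone levels was not tested. Many of these genes are near-identical in sequence, and counts of single members may be split between copies. Replacement histones, whose mRNAs are polyadenylated, were mixed. H3-3A rose from 16.4 to 46.6 CPM and H2AJ from 30.1 to 72.9 CPM (2.42-fold, 2.21 to 2.66), while H3-3B stood at 379 and 527 CPM and H2AZ1 at 742 and 842 CPM, neither of them called. MACROH2A2, a variant linked to silent chromatin, was lower, from 25.9 to 3.38 CPM (7.64-fold, 5.95 to 9.96).

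**Figure D2:**
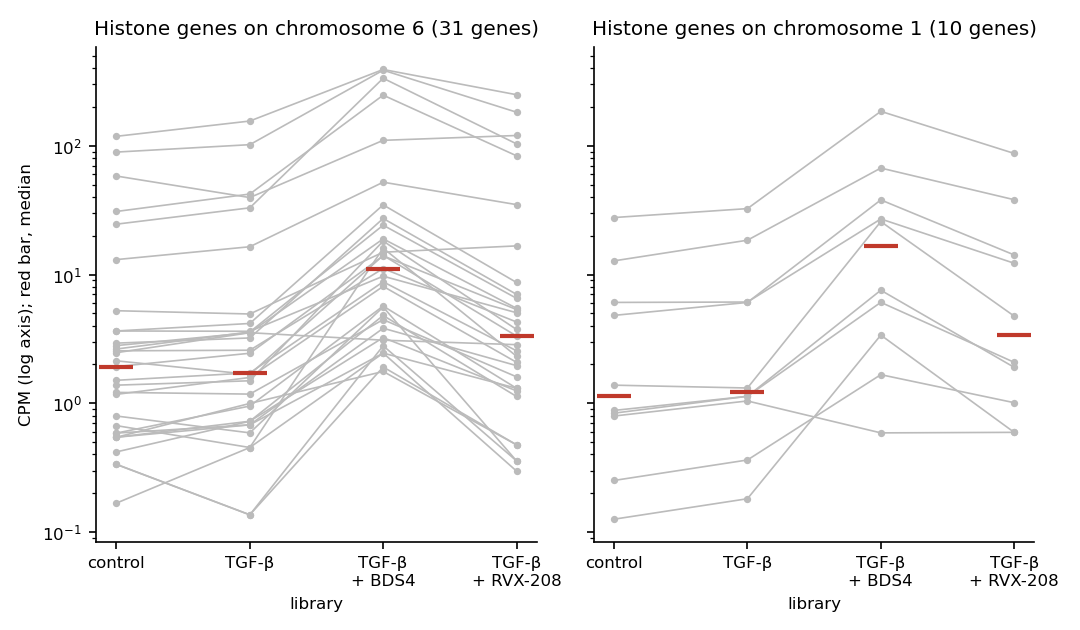
Level of each clustered histone gene (y axis, CPM, log axis) in the 4 libraries (x axis), with 1 grey line a gene and the median in red, for chromosome 6 (31 genes) and chromosome 1 (10 genes). On chromosome 6, 29 of 31 genes were called higher with BDS4 than with TGF-β alone, against 14.8% of all genes. Some of them were kept through the BDS4 library alone, which leaves only the higher side open.

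Of protein-coding genes with 1 exon, 27.5% were higher (95% exact binomial interval 22.1 to 33.6) against 11.3% (10.3 to 12.3) of those with 11 to 20 exons. With the clustered histones left out, 18.6% of the single-exon genes were higher (13.6 to 24.5) and 16.3% lower. The 284 longest genes had 19.7% higher and 27.1% lower, against 12.2% and 16.2% of genes from 10 to 50 kb. Long non-coding RNAs had 20.6% higher and 25.4% lower, and pseudogenes 15.9% and 10.6%. Shares also differed with level: 24.4% of protein-coding genes at 1 to 3 CPM were higher and 25.7% lower, against 9.78% and 14% at 30 to 100 CPM. Genes are not replicates, and these intervals treat them as independent.

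**Figure D3:**
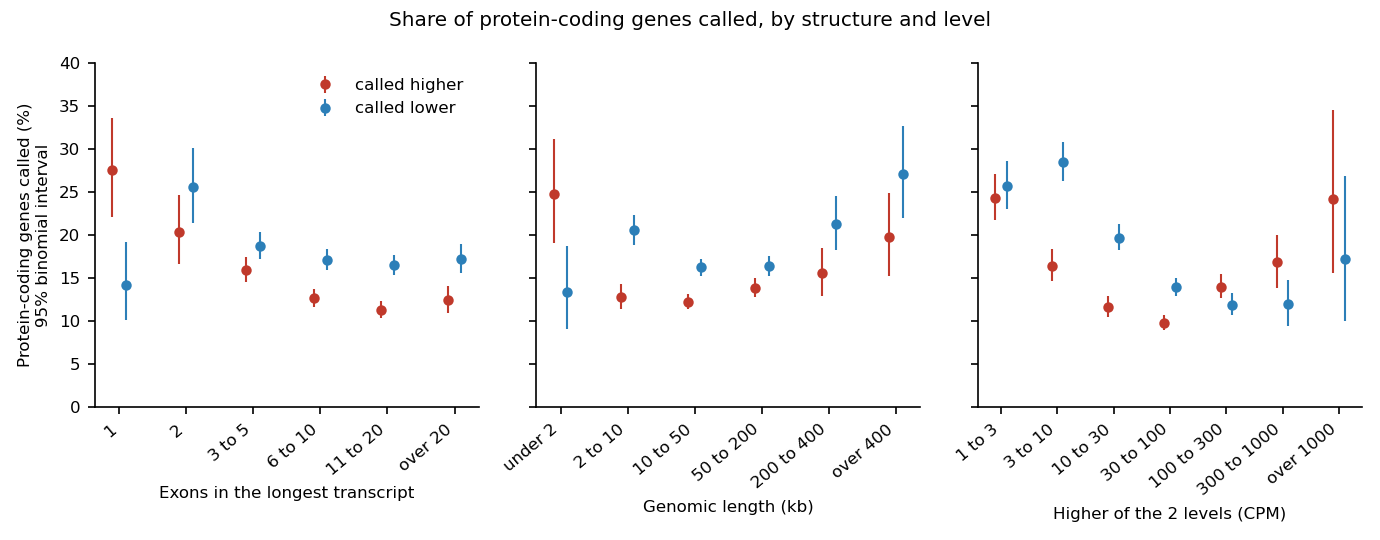
Share of protein-coding genes called higher (red) and lower (blue) with BDS4 (y axis, percent, with 95% binomial intervals) by exons in the longest transcript, genomic length in kb and the higher of the 2 levels in CPM (x axes). The share called higher was 27.5% at 1 exon and 11.3% at 11 to 20 exons. With the clustered histones left out, it was 18.6% at 1 exon (13.6 to 24.5).

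Among the BET proteins and the P-TEFb machinery, 3 of 22 genes were higher and 3 lower, 13.6% each against 14.8% and 17.7% of all genes, and the median log2 ratio was 0.24. BRD3, a BET protein, was at 45.6 CPM with TGF-β and 59.7 with BDS4 and was not called. CDK9 and CCNT1, the kinase and cyclin of P-TEFb, were at 55.6 and 64.9 CPM and at 71.4 and 110 CPM, and neither was called. AFF4, the scaffold of the super elongation complex, went from 258 to 554 CPM (2.15-fold, 2.08 to 2.22). The P-TEFb inhibitor HEXIM1 rose from 166 to 622 CPM (3.74-fold, 3.6 to 3.88). Its less abundant relative HEXIM2 went the other way, from 7.25 to 1.57 CPM (4.62-fold lower, 3.14 to 6.98). HEXIM2 overlaps a gene on the other strand over 50.3% of its exons, and the strand setting of the counting is not known. Other bromodomain proteins had 4 of 34 members higher and 7 lower (11.8% and 20.6%), also near the shares of all genes. BAZ1A, a chromatin remodelling subunit, went from 56.7 to 184 CPM, and ZMYND11, a reader of histone H3.3, from 35.9 to 6.52 CPM. CREBBP, an acetyltransferase, fell 2.41-fold (2.27 to 2.55), while its relative EP300 stood at 71.4 and 73.1 CPM.

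Genes of the TGF-β pathway moved member by member. Ligands, receptors and latency proteins had 5 of 24 higher and 8 lower (20.8% and 33.3%, against 14.8% and 17.7% of all genes, median -0.34). TGFB1 was at 213 CPM in the control, 827 with TGF-β, 905 with BDS4 and 831 with RVX-208, so only the control stood apart. TGFB2 fell from 133 to 19.4 CPM, with 88.4 in the control and 44.1 with RVX-208. GDF11, a ligand of the activin branch, rose from 94.4 to 368 CPM (3.90-fold, 3.72 to 4.10), with 98.1 in the control and 166 with RVX-208. The signalling receptor TGFBR2 fell 2.51-fold (2.36 to 2.69), TGFBR1 stood at 52.9 and 81.0 CPM, and the co-receptor TGFBR3 rose from 7.07 to 17.1 CPM, next to 17.2 in the control. SMADs and feedback genes had 3 of 20 higher and 5 lower (15% and 25%, median -0.22), and the 15% is near the share of all genes. SMAD3, a receptor-activated SMAD, stood at 221 CPM in the control, 196 with TGF-β, 68.8 with BDS4 and 118 with RVX-208. It fell 2.84-fold (2.68 to 3.02), and SMAD1, of the BMP branch, 4.16-fold (3.25 to 5.38). SMAD2 and SMAD4 were not called (86.6 and 80.0 CPM, 83.5 and 113 CPM). SKI, a repressor of SMAD complexes, rose from 146 to 467 CPM (3.20-fold, 3.07 to 3.33), and BAMBI, a decoy receptor, from 13.2 to 41.4 CPM. LDLRAD4, another feedback inhibitor, went down from 18.4 to 2.16 CPM (8.52-fold, 6.23 to 11.9). The inhibitory SMAD7 stood at 92.9 and 77.0 CPM.

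Fibrillar collagens had 7 of 9 genes lower and 1 higher (77.8% and 11.1%, against 17.7% and 14.8% of all genes). Their median log2 ratio was -3.38. COL27A1 stood at 22.1 CPM in the control, 135 with TGF-β, 12.9 with BDS4 and 81.0 with RVX-208 (10.5-fold lower than TGF-β, 9.22 to 11.9). Type V collagen, which starts the assembly of type I fibrils, went down in COL5A1 from 1197 to 243 CPM and in COL5A2 from 758 to 139 CPM. In COL5A2 the control was at 745 CPM, near the TGF-β library, and the BDS4 library was below both. COL11A2, the higher member, went from 0.589 to 1.27 CPM and lies in the MHC region, where counts are uncertain. It was kept through the BDS4 library alone, which leaves only the higher side open to it. Among the other collagens, 7 of 13 were lower and 1 higher (53.8% and 7.69%). COL16A1 fell 41.6-fold (23.1 to 84.0), from 22.5 to 0.539 CPM. Basement membrane genes had 8 of 21 lower and 0 higher (38.1% lower, median -0.49). Enzymes and chaperones that process collagen had 10 of 27 lower and 1 higher (37.0% and 3.70%, median -0.76). LOXL4, a cross-linking oxidase, went from 24.3 to 1.57 CPM and SERPINH1, the collagen chaperone HSP47, from 132 to 41.8 CPM, against 251 in the control.

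Matrix proteases and their inhibitors had 12 of 27 lower and 7 higher (44.4% and 25.9%, against 17.7% and 14.8% of all genes). The plasminogen system had 1 of 8 lower and 2 higher (12.5% and 25%). MMP14, the membrane collagenase that activates pro-MMP2, stood at 134 CPM in the control, 259 with TGF-β, 30.5 with BDS4 and 242 with RVX-208. Its fall was 8.51-fold (7.83 to 9.26). PLAU, the urokinase that generates plasmin, had 86.0, 230, 12.7 and 268 CPM in the same order. It fell 18.1-fold (15.9 to 20.5), while its receptor PLAUR stood at 81.7 and 121 CPM and PLAT, tissue plasminogen activator, rose from 192 to 432 CPM. PLAU shares 31.1% of its exon bases with a gene on the other strand. Integrins and focal adhesion genes had 11 of 30 lower, 0 higher and 19 neither (36.7% lower, median -0.66). TNS3, a tensin that links integrins to actin, had 66.3 CPM in the control, 76.4 with TGF-β, 6.33 with BDS4 and 30.4 with RVX-208. ITGA5, the fibronectin receptor chain, went from 540 to 129 CPM and ITGB5 from 100 to 22.1 CPM, while ITGAV stood at 172 and 162 CPM. TNS3 fell 12.1-fold (10.1 to 14.6).

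Intermediate filament genes separated by class, with 10 of 18 lower and 4 higher (55.6% and 22.2%, against 17.7% and 14.8% of all genes). Keratins were 8 of the 10 lower genes. KRT81 had 159 CPM in the control, 327 with TGF-β, 13.0 with BDS4 and 164 with RVX-208, a 25.1-fold fall (22.2 to 28.5). KRT8 and KRT18, the simple epithelial pair, fell from 296 to 59.9 and from 452 to 111 CPM. The 4 higher genes were NEFM, NEFH, INA and SYNM, which encode neurofilament subunits, internexin and synemin. INA rose from 14.1 to 70.5 CPM (5.00-fold, 4.42 to 5.67) and SYNM from 45 to 230 CPM (5.11-fold, 4.78 to 5.48). NEFM had 0 counts in the control, with TGF-β and with RVX-208, and 22 counts with BDS4. It was kept through the BDS4 library alone, which leaves only the higher side open, and it overlaps a gene on the other strand. MAP2, the microtubule-associated protein of dendrites, went from 0.272 to 14.8 CPM (54.5-fold, 24.7 to 150).

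**Figure D4:**
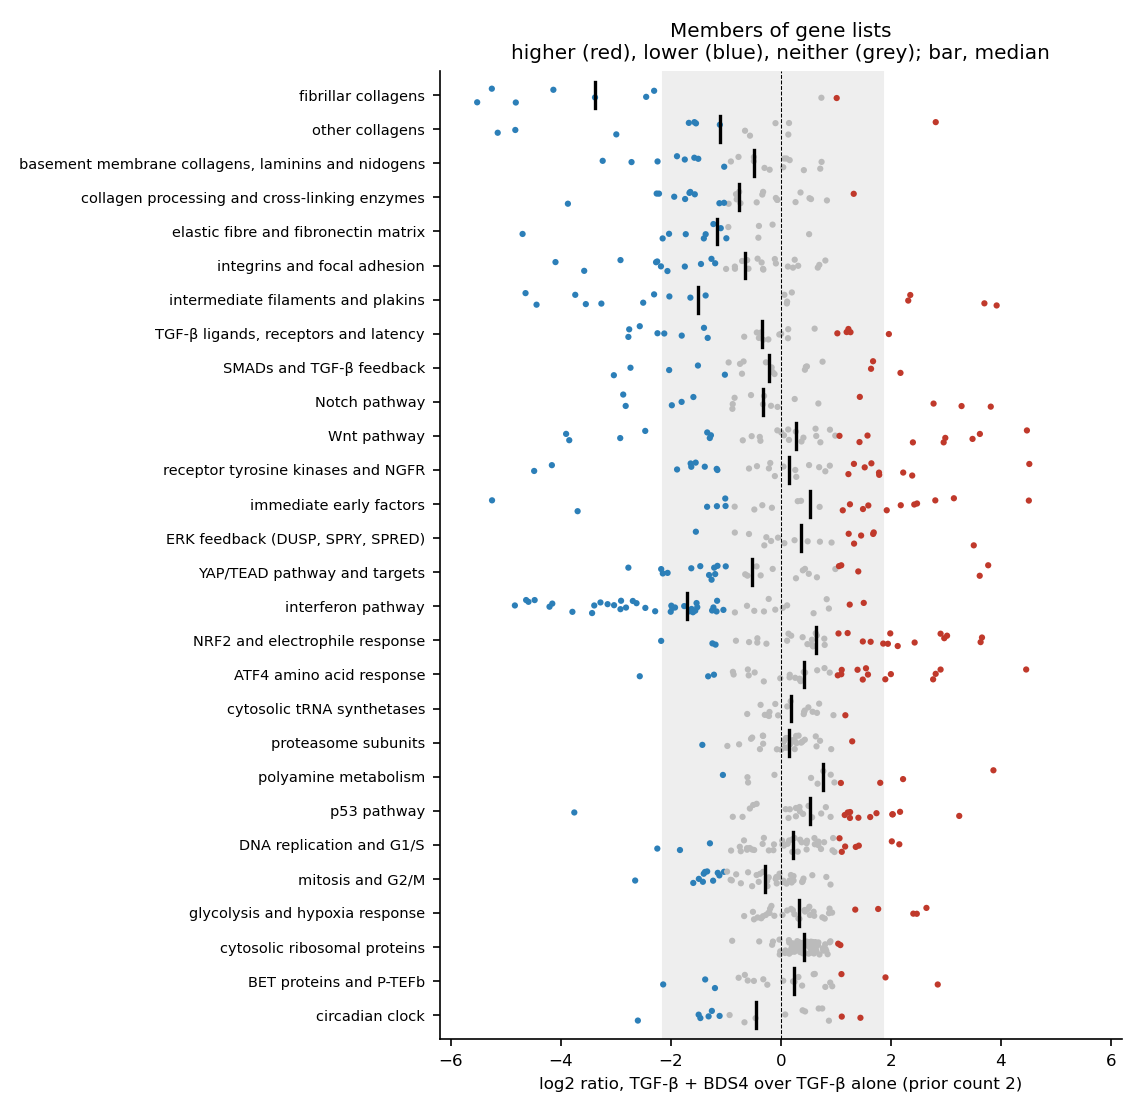
Log2 ratio of TGF-β with BDS4 over TGF-β alone (x axis, prior count 2) for the kept members of 28 gene lists (y axis), 1 point a gene, red higher, blue lower, grey neither, black bar the median. The grey band spans the 5th to 95th percentile of all genes (-2.14 to 1.85), and fibrillar collagens (median -3.38) and the interferon pathway (median -1.71) lie farthest to the left.

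Immediate early and ERK feedback genes contained large changes in both directions. DUSP6, a phosphatase that switches off ERK and is itself induced by ERK signalling, lies at chr12:89347232-89353271 on the - strand. It stood at 27.8 CPM in the control, 87.9 with TGF-β, 999 with BDS4 and 143 with RVX-208, and BDS4 stood far above the other 3. The rise over TGF-β was 11.4-fold (10.9 to 11.9). ERK feedback genes had 6 of 18 higher and 1 lower (33.3% and 5.56%, against 14.8% and 17.7% of all genes, median 0.37). Immediate early factors had 11 of 24 higher and 6 lower (45.8% and 25%, median 0.54). EGR1, a zinc finger factor, had 37.4, 104, 473 and 158 CPM in the control, TGF-β, BDS4 and RVX-208 libraries. EGR2, its paralogue, went the opposite way, with 0.586, 36.1, 2.70 and 10.7 CPM. FOS, an AP-1 subunit, went from 2.94 to 22.6 CPM (7.66-fold, 5.90 to 10.1) and KLF2 from 24.9 to 175 CPM. Of the AP-1 and ATF family 6 of 25 were higher and 4 lower (24% and 16%). IER2 stood at 108 CPM in the control, 39.0 with TGF-β, 0.932 with BDS4 and 2.49 with RVX-208, low in both compound libraries. ANKRD1, a target of YAP/TEAD, rose from 77.1 to 946 CPM (12.3-fold, 11.7 to 12.9). The YAP/TEAD list as a whole had 5 of 28 higher and 12 lower (17.9% and 42.9%), YAP1 among the lower (286 to 116 CPM).

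Of the Notch genes, 4 of 19 were higher and 5 lower (21.1% and 26.3%, against 14.8% and 17.7% of all genes). The ligand JAG1 had 21.9 CPM in the control, 358 with TGF-β, 49.0 with BDS4 and 276 with RVX-208, a 7.29-fold fall (6.83 to 7.80), whereas the ligand DLL4 had 1.8, 2.45, 35.6 and 3.62 CPM, a 14.6-fold rise (11 to 19.6). NRARP, a feedback target of Notch, went from 1.72 to 12.3 CPM, and HES1, the classical target, from 71.1 down to 23.6 CPM. In the Wnt list 9 of 33 were higher and 7 lower (27.3% and 21.2%, median 0.27). WNT5A, a ligand of the β-catenin-independent branch, went from 115 to 7.6 CPM (15.1-fold, 12.9 to 17.9), with 45.5 in the control and 63.6 with RVX-208. NKD1, an inhibitor induced by Wnt signalling, rose from 1.95 to 16.1 CPM (8.26-fold, 6.00 to 11.6), and AXIN2, another such target, stood at 11.4 and 12.7 CPM. Of the receptor tyrosine kinases, 9 of 30 were higher and 9 lower (30% each). FLT1, a VEGF receptor, had 115, 216, 675 and 208 CPM in the control, TGF-β, BDS4 and RVX-208 libraries. FGFR3 had 10.1, 16.3, 76.5 and 23.2 CPM. In both the BDS4 library was the highest by at least 3-fold. TEK, the angiopoietin receptor, fell from 9.56 to 0.441 CPM. KITLG, the ligand of KIT, rose from 12.8 to 135 CPM (10.5-fold, 9.32 to 12).

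In the list of interleukins, the IL-6 family and their receptors, 5 of 26 were higher and 11 lower (19.2% and 42.3%), with ligands and receptors on both sides. LIF fell 20.3-fold (16.7 to 24.9), from 106 to 5.20 CPM, with 16 in the control and 74.1 with RVX-208. Its receptor chain LIFR rose from 65.4 to 220 CPM (3.37-fold, 3.18 to 3.58), and IL6R from 2 counts to 64 counts, or 0.0906 to 3.14 CPM. The ligand IL11 rose from 319 to 1092 CPM, and the receptor IL4R fell from 33.2 to 6.28 CPM. CXCL12, the ligand of CXCR4, had 35.0, 41.0, 1.77 and 13.4 CPM in the control, TGF-β, BDS4 and RVX-208 libraries, a 23.2-fold fall (16.6 to 33.4). Of 48 interferon pathway genes, 35 were lower and 2 higher (72.9% lower, against 17.7% of all genes), and their median log2 ratio was -1.71. IFI44, whose promoter is shown above, had 16.1 CPM in the control, 35.1 with TGF-β, 1.81 with BDS4 and 17.8 with RVX-208 (19.4-fold lower than TGF-β, 13.9 to 27.7). HERC5, the ligase that attaches the ubiquitin-like ISG15, had 10.6, 13.5, 0.883 and 9.80 CPM, and XAF1 went from 9.69 to 0.245 CPM. IRF7, a transcription factor of the pathway, was on the higher side, from 11.9 to 33.9 CPM (2.86-fold, 2.47 to 3.30). STAT2 was at 67.8 and 102 CPM. IRF9 was lower, from 21.2 to 9.46 CPM, but shares 48.4% of its exon bases with a neighbour and lost the call when the overlapping genes were summed.

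**Figure D5:**
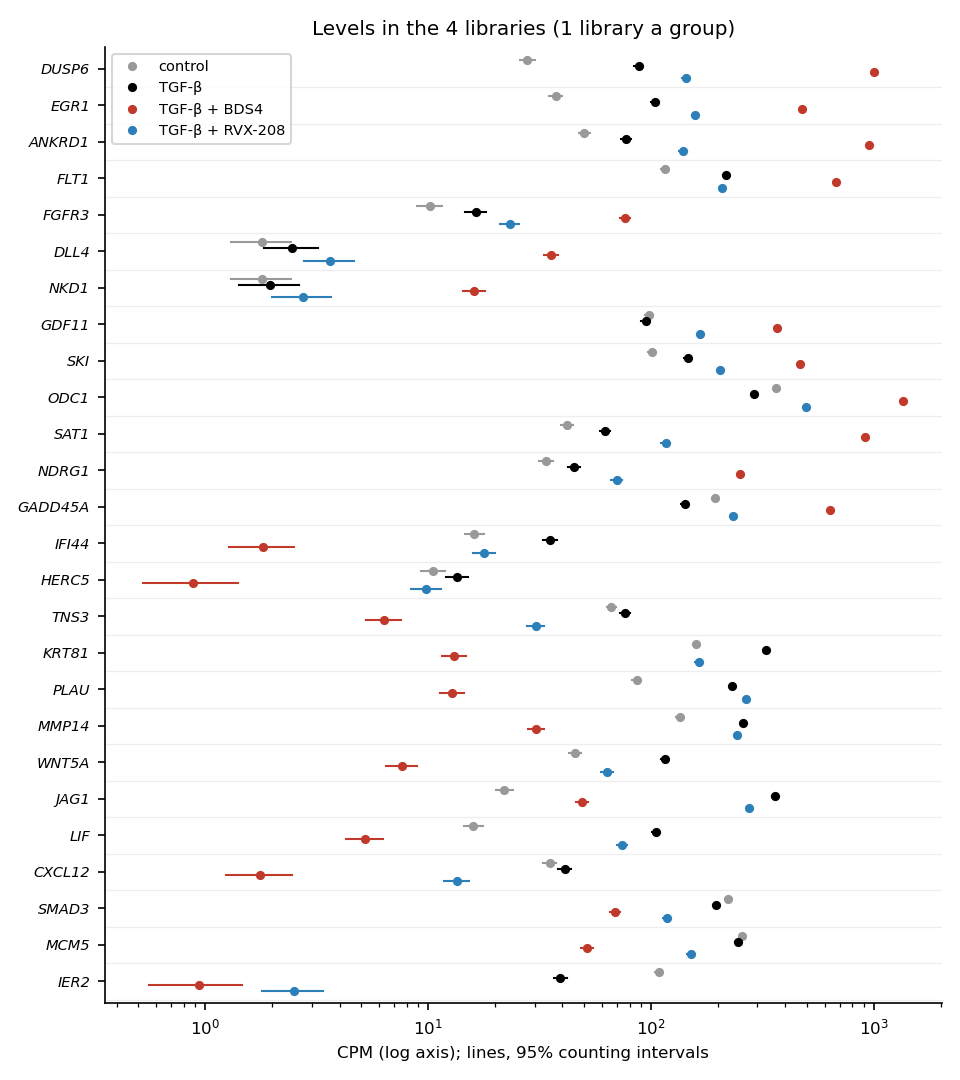
Levels of 26 named genes (y axis) in the 4 libraries (control, TGF-β alone, BDS4, RVX-208) (x axis, CPM, log axis), with 95% counting intervals as lines. DUSP6 and EGR1 have the BDS4 point at the far right (999 and 473 CPM), and IFI44, PLAU and WNT5A at the far left (1.81, 12.7 and 7.6 CPM).

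NRF2 is released from KEAP1 when electrophiles modify it, and then raises genes of thioredoxin and glutathione metabolism. Of 34 NRF2 genes, 14 were higher and 3 lower (41.2% higher, against 14.8% of all genes, median 0.64). TXNRD1, thioredoxin reductase, stood at 330 CPM in the control, 194 with TGF-β, 2449 with BDS4 and 249 with RVX-208. EPHX1, an epoxide hydrolase, had 20.6, 18.4, 145 and 29.4 CPM in that order and rose 7.87-fold (7.09 to 8.75). HMOX1, haem oxygenase, went from 24.6 to 69.2 CPM, while NQO1, often used as a marker of NRF2, stood at 132 and 196 CPM and was not called. The mRNAs of NRF2 itself (NFE2L2) and of KEAP1 were at 17 and 25.2 CPM and at 81.4 and 60.5 CPM. The iron storage genes FTL and FTH1 rose 3.10-fold (3.06 to 3.14) and 2.32-fold (2.29 to 2.35), and the transferrin receptor gene TFRC from 316 to 1048 CPM.

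Genes of the amino acid response to ATF4 had 13 of 34 members higher and 3 lower (38.2% and 8.82%, median 0.43). Of all genes 14.8% were higher and 17.7% lower. CTH, which makes cysteine, went from 2.72 to 19 CPM (7-fold, 5.32 to 9.35). GDF15, a secreted target of the same response, went from 1.36 to 0.147 CPM. Cytosolic tRNA synthetases, several of which are ATF4 targets, had 1 of 19 higher (5.26%), AARS1. In the unfolded protein response 5 of 36 were higher and 2 lower, and the 13.9% higher is near the 14.8% of all genes. ERN1, the sensor IRE1α, rose from 38.5 to 196 CPM (5.09-fold, 4.73 to 5.49) and DNAJB9, a co-chaperone that restrains it, from 20.2 to 91.1 CPM. Their control and RVX-208 levels were 31.2 and 57.4 CPM for ERN1 and 12.6 and 21.3 CPM for DNAJB9. Proteasome subunits had 1 of 34 higher and 1 lower (2.94% each). Of the metallothioneins and zinc transporters, 2 of 10 were higher and 5 lower (20% and 50%). MT2A went from 2235 to 5281 CPM while MT1E went from 201 to 63.7 CPM, and these genes are close copies of each other.

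Of 13 polyamine genes, 4 were higher, 1 lower and 8 neither (30.8% higher, against 14.8% of all genes, median 0.77). ODC1, which makes putrescine, had 363 CPM in the control, 289 with TGF-β, 1346 with BDS4 and 493 with RVX-208 (4.66-fold, 4.54 to 4.79). AMD1, which supplies the aminopropyl group, went from 75.4 to 264 CPM. SAT1, which acetylates polyamines for export and breakdown, had 41.8, 62.2, 906 and 116 CPM and rose 14.6-fold (13.8 to 15.4). Of the glycolysis and hypoxia genes, 5 of 36 were higher and 0 lower (median 0.33), which is 13.9% higher. NDRG1, a stress-induced gene of that list, rose from 44.9 to 249 CPM, with 33.8 in the control and 70.1 with RVX-208, while VEGFA stood at 39.1 and 59.2 CPM and the glucose transporter SLC2A1 at 77.5 and 48.8 CPM. Autophagy and lysosome genes numbered 49, with 8 higher and 3 lower, and 16.3% higher is near the 14.8% of all genes. Among these was MAP1LC3B, which encodes the LC3 protein of autophagosome membranes and went from 71.4 to 281 CPM (3.93-fold, 3.72 to 4.16).

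In the p53 pathway list 11 of 30 were higher and 1 lower (36.7% and 3.33%, against 14.8% and 17.7% of all genes). The median was 0.54. GADD45A, a stress-induced growth arrest gene, had 193 CPM in the control, 141 with TGF-β, 634 with BDS4 and 233 with RVX-208. CDKN1A, the inhibitor p21, had 86.5, 108, 444 and 177 CPM and rose 4.10-fold (3.92 to 4.29). MDM2, a core p53 target, stood at 69.4 and 77.8 CPM, and BAX at 100 and 54.5 CPM, neither of them called. SESN3, a sestrin, was outside the lists and rose from 5.8 to 93.6 CPM (16.1-fold, 13.5 to 19.5). Mitotic genes had 11 of 44 lower and 0 higher (25% lower, median -0.29). AURKA went from 188 to 62.5 CPM. Genes of replication and G1/S had 7 of 48 higher and 3 lower (median 0.23), and the 14.6% higher is near the 14.8% of all genes. MCM5, a subunit of the replicative helicase, was on the lower side, from 245 to 51.7 CPM (4.75-fold, 4.44 to 5.07), with 256 in the control and 151 with RVX-208. In the BCL2 and IAP families 4 of 33 were higher and 6 lower. These shares, 12.1% and 18.2%, are near the 14.8% and 17.7% of all genes. BCL2L11, the death-promoting BIM, went from 25 to 83.6 CPM and BCL2L1, the protective BCL-XL, from 92.1 to 32.1 CPM, while MCL1 stood at 156 and 247 CPM. This list had a median of 0.27 and a mean of -0.03.

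Cytosolic ribosomal proteins had 2 of 75 higher (2.67%) and 0 lower, with a median of 0.42. Both calls, RPS16 and RPS20, ended under total-count scaling. Genes of the MYC network and ribosome biogenesis had 4 of 43 higher and 3 lower (9.30% and 6.98%, median -0.03). Nuclear-encoded genes of oxidative phosphorylation had 1 of 45 higher and 7 lower (15.6% lower, against 17.7% of all genes). Circadian clock genes had 2 of 17 higher and 6 lower (35.3% lower). Among them BHLHE40, a repressor of the clock, had 130 CPM in the control, 786 with TGF-β, 330 with BDS4 and 865 with RVX-208.

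Nuclear receptors and genes of the quiescent stellate state did not move as one. Of 30 nuclear receptors, 6 were higher and 6 lower (20% each, against 14.8% and 17.7% of all genes). The retinoic acid receptors RARG and RARB fell from 23.0 to 4.07 CPM (5.64-fold, 4.47 to 7.2) and from 2.85 to 0.539 CPM (5.29-fold, 2.76 to 11.1). NR3C1, the glucocorticoid receptor, fell from 161 to 49.97 CPM, with 144 in the control and 153 with RVX-208. NR4A3, an orphan receptor of the immediate early kind, rose from 2.31 to 21.1 CPM. NR1H4 rose from 0.0453 to 15.6 CPM, and it was kept through the BDS4 library alone, which leaves only the higher side open. In the list of retinoid and quiescence genes 7 of 20 were higher and 3 lower (35% and 15%). Its median was -0.07 and its mean 0.16. NGFR, its largest rise, went from 24.1 to 553 CPM, while STRA6, the retinol uptake receptor, fell from 7.84 to 0.245 CPM. Mesenchymal transcription factors and cadherins had 17 of 38 lower and 2 higher (44.7% and 5.26%, median -0.64).

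Several genes were almost silent in one of the libraries. SERPINI1, which encodes the serpin neuroserpin, lies at chr3:167735243-167825568 and had 3 counts with TGF-β and 537 with BDS4. CLSTN2, a calsyntenin, had 0, 2, 167 and 4 counts in the control, TGF-β, BDS4 and RVX-208 libraries, and the ratio of BDS4 to TGF-β was 90.4 (24.6 to 753). TLL2, a tolloid-like protease, had 2 counts with TGF-β and 133 with BDS4 (72.0-fold, 19.5 to 601). TMEM132B had 0 and 118 counts and was at least 42.6-fold higher. On the other side FAP, fibroblast activation protein, had 115 counts with TGF-β and 0 with BDS4, at least 35.4-fold lower. Its level was 0.0837 CPM in the control, 5.21 with TGF-β and 1.54 with RVX-208. SLAMF8, a receptor better known from myeloid cells, had 157 counts with TGF-β and 0 with BDS4, at least 48.3-fold lower, and 69.0% of its exon bases overlap a gene on the other strand. TNFSF15, a cytokine of the tumour necrosis factor family, fell 68.3-fold (32.9 to 171), with 0.712 CPM in the control, 23.5 with TGF-β, 0.343 with BDS4 and 5.88 with RVX-208. Of these genes SLAMF8 and TNFSF15 were lowest with BDS4, with the control next. For FAP the order of these libraries is not resolved, since a count of 0 with BDS4 allows up to 0.147 CPM. INO80B-WBP1 and PCDHGA3 also met this criterion but share exons with their neighbours, and INO80B-WBP1 was no longer called once overlapping genes were added up. Of all called genes, 834 overlap the exons of a neighbour in the same orientation, and adding these up ended or turned 259 calls. Overlap with a gene on the opposite strand covered 40.5% of the exon bases of DUSP6, 30.8% of IER2, 38.9% of NEFM, 27.7% of SYNM, 38.3% of XAF1, 43% of BCL2L1 and 62.4% of FTH1, so counts of these genes could include reads of the other strand. TGFB2 shares 26.6% with a gene on its own strand and kept its call.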

How the data were processed

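RNA sequencing of LX-2 cells in 4 libraries, 1 per group, was analysed from whole-number counts per gene as deposited. The submitters' processing notes name CASAVA 1.8, TopHat2 2.0.6 and the GRCh38 build. The FPKM values of the authors were made with StringTie 1.3.0, per the series' design text, and were used only to check the counts: in 9069 genes they gave 1 length per gene within 0.000263%. Which counting program, annotation release and strand setting were used was not given in the sources used here.

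TMM scaling of the counts (edgeR 4.0.16 in R 4.3.3) was computed over genes with at least 1 CPM in any library, with factors of 0.943 for BDS4 and 1.01 for TGF-β. A count of 3 corresponded to 0.147 and 0.136 CPM there. Ratios carry 95% conditional exact (Clopper-Pearson) intervals, which, like the limits for counts of 0, cover counting error only. List medians use log2 ratios with a prior count of 2. Overlaps, exons and positions come from GENCODE 29. Python 3.11.15 with scipy 1.17.1 was used, and the call rule was run on simulated counts. Those counts held counting error only, so the run says nothing about variation between cultures. Total-count and DESeq2 1.42.0 scaling, other filters, a 3-fold rule and summed overlapping genes were tried.

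Protein-coding genes are named by a rule: the 12 largest rises and falls among genes with at least 10 CPM on one side and no shared exons, ranked by the interval bound nearer to no change, the 10 largest gains and losses in CPM, genes with at most 3 counts on one side and at least 5 CPM on the other, and up to 5 called members per list and direction. Members that define a pathway and a fixed set of genes were added. Other genes are examples chosen after their values were seen. The members and lists were chosen with earlier results of these data known.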

Additional observations from a re-analysis of the deposited data

How the results depend on the processing

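The counts of genes called moved by over 1.5 times under 1 of 12 alternatives: asking for 3-fold left 1109 genes higher and 1506 lower. Under the other 11 they ran from 1576 to 3004 higher and from 1961 to 3417 lower, with total-count scaling giving 1994 and 3112. TMM over all genes, leaving out the MHC region and leaving out genes with shared exons were added after the data were seen. Total counts moved the median of all genes by -0.0986 on the log2 scale. Of 468 named genes, 13 lost the call under total counts, 2 under DESeq2 size factors and 6 with TMM over all genes, TIMP1 and INSIG1 under all 3. With overlapping genes summed, 4 lost it and 3 turned: BCL2L2 to -1.39, GSTM4 to 0.12 and INO80B-WBP1 to -0.13, all genes that share exons. The median of the leukocyte markers changed sign with at least 5 CPM required, to -1.20. No paired analysis was possible because each group has 1 library. Depth limits genes near 0 counts, whose ratios have wide intervals.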
